A study of Mus musculus with 6 samples.

Results

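The table of whole-ovary RNA-seq values held 16454 genes, and 55 of them were opposite-strand transcripts with their sense gene in the same table. They were found by name: 75 symbols ended in os or in os1 to os4, and for 55 of these the text before the ending was itself a symbol of the table. The other 20 were left out. Of those, 17 were not named as opposite-strand genes (Fos, Nos1 and Sos1 among them), and 3 were (Foxd2os, Rab26os and Zbtb8os) but had no sense gene in the table. The 55 transcripts had 54 sense genes, since Tbx3 had both Tbx3os1 and Tbx3os2. The rule used names only and no measured value.

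The ovaries were those of F3 mice of the outbred CD1 stock on postnatal day 21. In the DEHP lineage the F0 dams were dosed with the plasticizer DEHP, which is di(2-ethylhexyl) phthalate, at 20 µg/kg/day, and in the control lineage they were given the vehicle. Each lineage had 3 ovaries, sequenced one by one. The labels give no treatment of the F3 animals themselves, and no litter or founder dam for any ovary. The p-values therefore measure the spread between these ovaries, which may not be the spread between families.

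Opposite-strand transcripts are read from the DNA strand that faces a named gene. Many begin at or near the start of that gene and run away from it, others begin inside it and run across its exons, and most are long noncoding RNAs that are spliced and polyadenylated at low levels. Some lie beside developmental regulators and hold microRNAs, and a few encode proteins. In the ovary, Foxl2os lies head to head with Foxl2, the forkhead factor of granulosa cells.

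The names were set beside the annotation. In GENCODE M21 on GRCm38.p6, 53 of the 55 transcripts could be matched (Chd3os and Ggnbp2os were not), and all 53 lay on the strand opposite their sense gene. RefSeq gave a class to 54: 49 were long noncoding or antisense RNAs, 1 was a transcribed pseudogene (Fbxl12os), and 4 were protein coding (Ccpg1os, Cebpzos, Slc7a6os and Wdr83os). Their exons covered 430 to 7928 bases. Taking the closest pair of GENCODE starts, 21 transcripts began within 1000 bases upstream of a sense start and ran away from it. Another 12 began within 1000 bases downstream, so that the 5′ ends overlapped. A further 15 overlapped the sense gene with starts farther apart, and 5 lay beyond it with starts farther apart. GENCODE exons were shared between transcript and sense gene in 30 pairs, over 12 to 653 bases, at most 52.3% of the transcript's exonic bases (Wdr83os). RefSeq gives other starts for some of these transcripts, as said below.

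The start regions of 5 transcripts named below show a range of arrangements. RefSeq windows run from 250 bases before to 50 bases after the start, on GRCm38.p6, and capitals mark the bases that also lie in the window of the sense gene on the other strand. A window was given for 45 of the 55 transcripts and for both genes of 36 pairs, and the windows of 14 pairs shared 41 to 286 bases. The window of Foxl2os, chr9:98955261-98955560 on the minus strand, shared 204 bases with that of Foxl2. The window of Map2k3os, chr11:60931818-60932117 on the minus strand, shared 286 bases with that of Map2k3. The window of Wdr83os, chr8:85080713-85081012 on the plus strand, shared 284 bases with that of Wdr83. The window of Dio3os, chr12:110278019-110278318 on the minus strand, shared 0 bases with that of Dio3. For Kirrel3os (chr9:35007646-35007945, minus strand) the window of the sense gene was not analysed here, so its lower case does not show that nothing is shared. RefSeq places the start of Kirrel3os elsewhere within Kirrel3 than GENCODE does.
Foxl2os: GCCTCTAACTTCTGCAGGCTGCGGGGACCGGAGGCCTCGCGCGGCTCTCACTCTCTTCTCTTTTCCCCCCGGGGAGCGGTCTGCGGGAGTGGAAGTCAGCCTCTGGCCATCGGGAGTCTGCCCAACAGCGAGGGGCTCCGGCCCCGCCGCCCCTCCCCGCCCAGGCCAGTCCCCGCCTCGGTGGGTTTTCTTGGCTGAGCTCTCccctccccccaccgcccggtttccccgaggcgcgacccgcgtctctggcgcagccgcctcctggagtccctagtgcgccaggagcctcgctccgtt
Map2k3os: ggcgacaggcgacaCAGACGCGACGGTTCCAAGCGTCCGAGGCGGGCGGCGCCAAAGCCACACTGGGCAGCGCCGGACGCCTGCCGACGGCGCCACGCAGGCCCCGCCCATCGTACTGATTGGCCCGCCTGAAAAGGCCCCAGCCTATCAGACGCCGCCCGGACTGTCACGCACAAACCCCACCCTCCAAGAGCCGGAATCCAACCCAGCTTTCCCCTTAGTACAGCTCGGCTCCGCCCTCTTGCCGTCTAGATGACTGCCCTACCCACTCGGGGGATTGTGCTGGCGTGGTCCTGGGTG
Wdr83os: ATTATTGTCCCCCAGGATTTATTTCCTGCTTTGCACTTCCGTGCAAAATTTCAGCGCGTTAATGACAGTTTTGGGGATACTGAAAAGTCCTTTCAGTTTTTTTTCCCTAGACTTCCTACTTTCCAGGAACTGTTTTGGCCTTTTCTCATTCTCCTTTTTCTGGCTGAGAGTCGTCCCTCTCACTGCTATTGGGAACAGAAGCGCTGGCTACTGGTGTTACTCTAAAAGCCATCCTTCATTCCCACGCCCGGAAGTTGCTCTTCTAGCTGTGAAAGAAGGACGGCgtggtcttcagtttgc
Dio3os: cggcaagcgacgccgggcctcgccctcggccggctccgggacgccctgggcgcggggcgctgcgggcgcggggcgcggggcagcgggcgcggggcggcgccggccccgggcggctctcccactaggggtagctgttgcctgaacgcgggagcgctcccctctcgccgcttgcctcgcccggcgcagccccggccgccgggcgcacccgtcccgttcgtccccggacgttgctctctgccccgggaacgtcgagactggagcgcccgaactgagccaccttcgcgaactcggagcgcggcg
Kirrel3os: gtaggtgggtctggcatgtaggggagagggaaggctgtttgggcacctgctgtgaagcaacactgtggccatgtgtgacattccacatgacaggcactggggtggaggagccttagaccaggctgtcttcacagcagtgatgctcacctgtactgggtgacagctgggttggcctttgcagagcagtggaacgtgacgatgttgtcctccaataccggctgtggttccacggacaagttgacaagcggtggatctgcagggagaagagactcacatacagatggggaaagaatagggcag

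The 14 shared windows were rich in G and C. Their median GC content was 70.3% with a median of 32 CpG sites, against 52.3% and 9 CpG sites in the 22 windows that were not shared and 52.7% and 7 in all 32851 RefSeq windows. The other 9 windows belong to transcripts whose sense gene had no window here, and they are in neither group. The letters GGGCGG, the GC box, were found on one strand or the other in 12 of the 14 shared windows and in 8 of the 22 not shared, against 35.7% of all windows. Foxl2os, Map2k3os and Dio3os held them, and Wdr83os and Kirrel3os did not. The letters TATAAA occurred in 0 of the 14 shared windows and 2 of the 22 not shared, against 13.6% of all windows. CCAAT was present in 3 of 14 and 8 of 22 windows, against 37.4% of all, and the ETS core CCGGAAG in 3 of 14 and 2 of 22, against 8.86% of all. TGTTTAC, a forkhead core, was in 0 of the 45 windows, against 3.65% of all, and GCGCATGC, an NRF1 core, was in 1, against 2.71% of all. A match is a run of letters and not a measured binding site, and the motifs may overlap each other.

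Expression was given as log2 CPM, the reads of a gene scaled to the size of its library, on a log2 scale, with one surrogate variable (an estimated nuisance direction across samples) already removed. That removal took out most of what set DEHP-lineage replicates 1 and 3 apart, with weights of -0.60 and 0.75, so the SDs below are smaller than the spread between ovaries was. The depth of the libraries is unknown. Reads from the library kit keep their strand, but the sources used here do not say whether strand was used in counting. Where exons are shared, reads of a transcript and of its sense gene cannot be told apart if it was not.

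The opposite-strand transcripts were mostly low. Their mean log2 CPM over the 6 ovaries had a median of 0.85, against 5.52 for their sense genes and 4.49 for all genes, and ran from -1.02 (Tvp23bos) to 6.99 (Foxl2os). The mean was at least 0, which is 1 CPM, in 40 of the 55 and below 0 in 15. Foxl2os and Brip1os stood at the top. Brip1os faces Brip1, a DNA helicase that binds Brca1, and had 99.8, 109.0 and 96.4 CPM in DEHP-lineage ovaries, against 94.3, 124.1 and 110.4 CPM in control-lineage ovaries. These ranges overlapped. Foxl2os alone made up 28.6, 28.7 and 28.2% of the summed CPM of the 55 transcripts in DEHP-lineage ovaries, against 21.0, 20.1 and 24.2% in control-lineage ovaries.

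**Figure D1:**
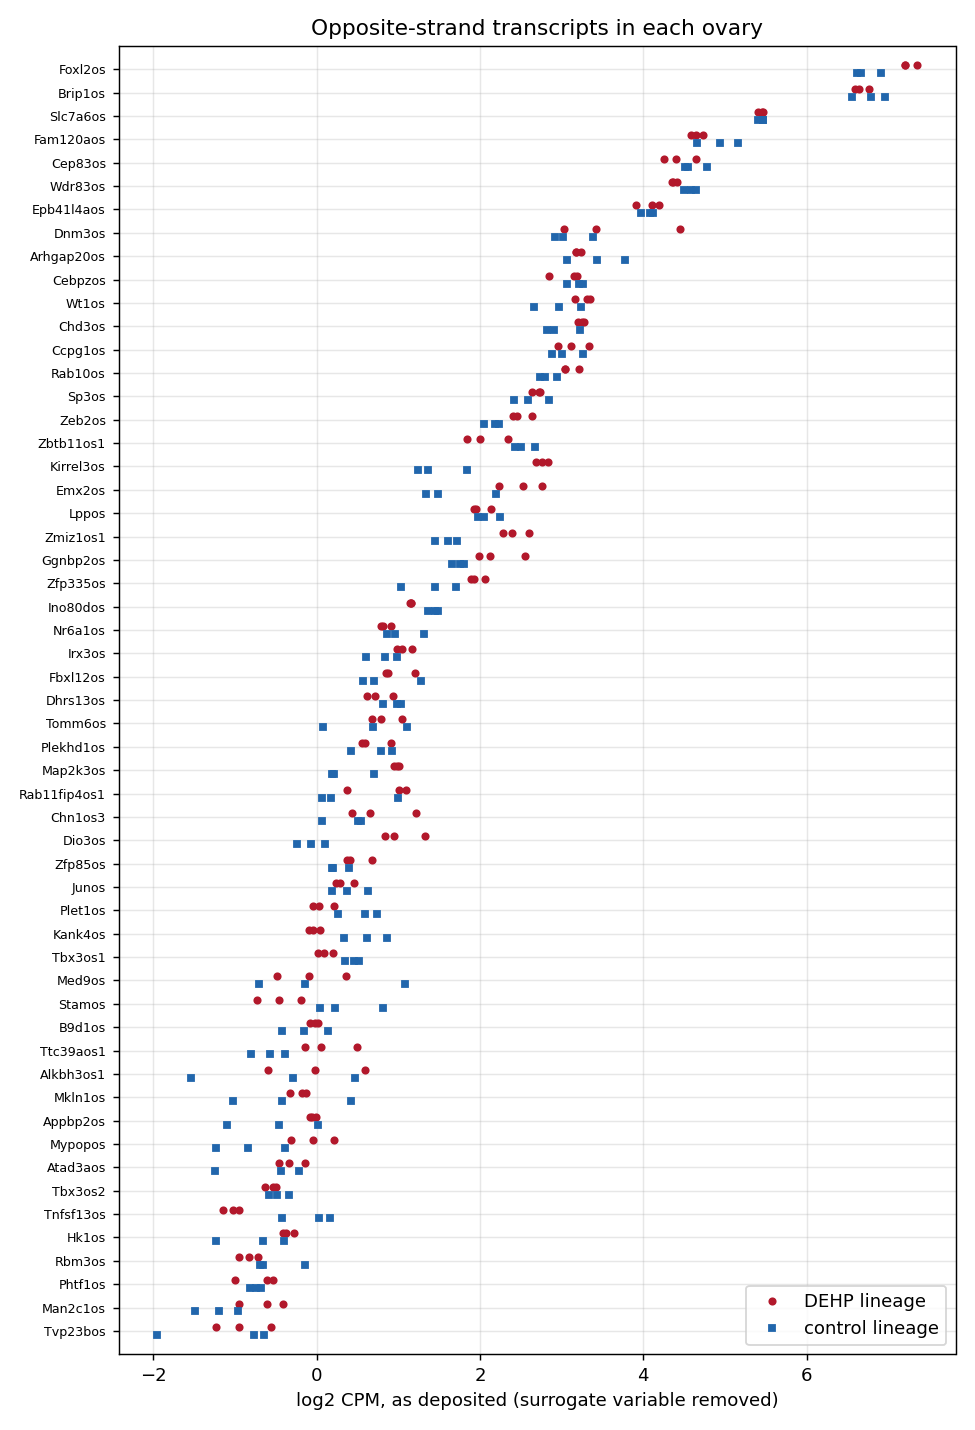
Log2 CPM of each of the 55 opposite-strand transcripts in each of the 6 ovaries, ordered by mean level from the highest at the top, with DEHP-lineage ovaries as red circles above control-lineage ovaries as blue squares in each row. Foxl2os and Brip1os stand at the top, the median transcript lies at 0.85, and 15 transcripts average below 0.

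Per kilobase of exon, most transcripts were below their partner. Of 53 pairs with exon lengths in GENCODE, the transcript was below its sense gene in each of the 6 ovaries in 42 and above it in each in 9. The median level was 14.3% of the sense gene's CPM per kilobase. Foxl2os stood at 46.0% of Foxl2, Emx2os at 4.47% of Emx2 and Wt1os at 6.20% of Wt1. The lowest was Tomm6os, at 0.982% of Tomm6, a subunit of the mitochondrial import channel (Tomm6os was chosen after its value was seen). Of the 31-base words of Tomm6, 71.8% also occur in other genes, so that ratio is uncertain. Above their partner stood Brip1os at 314.8%, Dnm3os at 405.9%, Wdr83os at 413.4% and Kirrel3os at 767.4%. Epb41l4aos was the most extreme, at 8424% of Epb41l4a, which averaged 4.34 ± 0.143 CPM in the DEHP lineage and 4.07 ± 0.551 CPM in the control lineage (SD, n = 3 each). The exon lengths are those of GENCODE's union of exons, since the sources used here do not name the annotation the authors counted on.

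**Figure D2:**
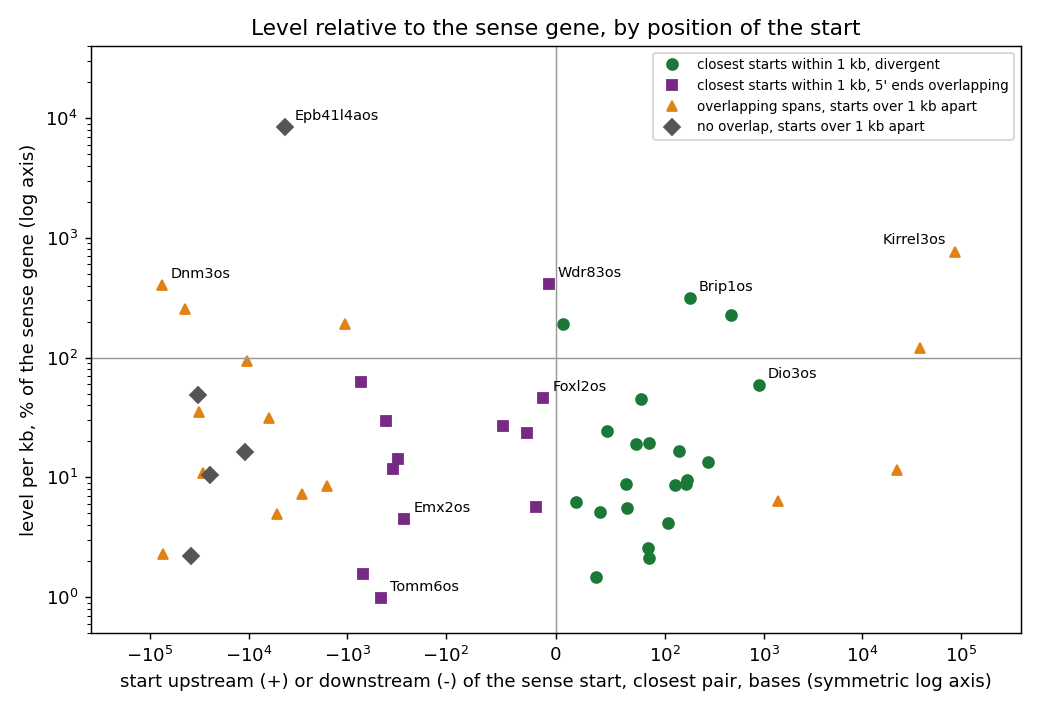
CPM per kilobase of exon of each transcript as a percentage of its sense gene (log axis, mean over 6 ovaries) against the distance between the closest annotated starts of the pair in bases (symmetric log axis, positive where the transcript starts upstream and runs away), for 53 pairs, with symbols for 4 arrangements. Most points lie below 100%, and Epb41l4aos at 8424% stands above all others.

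The central comparison asks whether these transcripts differ between descendants of dosed and undosed dams. By limma with Benjamini-Hochberg adjustment over all 16454 genes, 0 of the 55 transcripts and 0 of the 54 sense genes passed an adjusted p of 0.05, where 7 of all genes did (0.0425%, with 0.0243% above and 0.0182% below the control lineage). The lowest adjusted p by limma was 0.225 among the transcripts (Kirrel3os) and 0.174 among the sense genes (Tbx3). No change below is therefore called, and each value is given as a description. An unadjusted p under 0.05 was found for 7 of the 55 transcripts (12.7%), 5 higher and 2 lower in the DEHP lineage, against 8.78% of all genes (4.76% higher and 4.02% lower). That count was 17 without control-lineage replicate 3, 14 without control-lineage replicate 1, 13 without control-lineage replicate 2 and 12 without DEHP-lineage replicate 2. The share of all genes under those settings was higher as well, at 15.0, 15.9, 17.4 and 14.6%. The count was 10 without DEHP-lineage replicate 1 and 6 without DEHP-lineage replicate 3, against 9.73 and 6.86% of all genes. With median centring it was 6, against 8.61% of all genes. With replicate number as a block in place of the removed direction it was 6 (10.9%), against 10.8% of all genes. Without the removed direction as a covariate the count was 17, against 14.9% of all genes. With the covariate, 5 of the 54 sense genes (9.26%) had an unadjusted p under 0.05.

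The ovaries of the lineages did not overlap in 23 of the 55 transcripts (41.8%), against 22.9% of all genes. Of the 55, 14 were higher in the DEHP lineage without overlap, against 10.8% of all genes. Another 9 of the 55 were lower without overlap, against 12.2% of all genes. Among the sense genes, 10 of 54 (18.5%) did not overlap, 4 higher and 6 lower. The mean was higher in the DEHP lineage in 33 of the 55 transcripts (60.0%), against 46.9% of all genes. The median log2 fold change (DEHP lineage minus control lineage) was 0.13 for the transcripts, 0.01 for the sense genes and -0.01 for all genes, and it was 0.02 for the transcripts without control-lineage replicate 3. In 14 transcripts (25.5%) and 2 sense genes the lineages differed by 0.5 or more on the log2 scale, against 9.83% of all genes. Low genes vary more: the median standard error of the log2 fold change was 0.27 for the transcripts, 0.12 for the sense genes and 0.13 for all genes.

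Foxl2os, the most abundant of the 55, lies in GENCODE on chromosome 9 at 98949781 to 98955299. There it starts 11 bases inside Foxl2, with 12 shared exonic bases. RefSeq starts Foxl2os at 98955310, upstream of the RefSeq start of Foxl2, so there the starts diverge. Foxl2os had 147.1, 164.1 and 147.5 CPM in DEHP-lineage ovaries, against 101.4, 98.2 and 120.0 CPM in control-lineage ovaries. Every DEHP-lineage ovary was above every control-lineage ovary. The log2 fold change was 0.52 (SE 0.10, 95% interval 0.29 to 0.76), with an adjusted p of 0.272 by limma. Foxl2 itself had 323.3, 254.5 and 297.6 CPM in DEHP-lineage ovaries, against 233.7, 243.4 and 291.0 CPM in control-lineage ovaries. Its ranges overlapped, and its log2 fold change was 0.19 (SE 0.12). The difference within the pair, Foxl2os minus Foxl2 on the log2 scale, was 0.34 higher in the DEHP lineage. It was 0.19 without DEHP-lineage replicate 2. The lineages did not overlap in it (exact two-sided permutation p 0.1, the smallest that 3 against 3 allows). The permutation does not count the removed direction, so its p-values, here and below, may be too small. In whole ovaries, fewer cells of a type and less RNA per cell cannot be told apart. Of 8 granulosa cell markers, Foxl2 among them, 4 were higher and 4 lower in the DEHP lineage and 0 were called. Their summed CPM was 6855 to 7824 in DEHP-lineage ovaries, against 6054 to 6845 in control-lineage ovaries. Most of that sum was Inha, at 4573 to 5517 CPM in DEHP-lineage ovaries, against 3815 to 4489 CPM in control-lineage ovaries. Amh was lower without overlap, with a log2 fold change of -0.25 (SE 0.10). The part of these markers in the Foxl2os values was not tested.

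Emx2os and Emx2, a homeobox factor of the developing urogenital tract, were both higher in each DEHP-lineage ovary. Emx2os (chromosome 19, 59425104 to 59458635) had 4.69, 6.74 and 5.77 CPM in DEHP-lineage ovaries, against 4.58, 2.53 and 2.80 CPM in control-lineage ovaries. The gap between the lowest DEHP-lineage ovary and the highest control-lineage ovary was narrow. Emx2 had 58.4, 68.9 and 60.9 CPM in DEHP-lineage ovaries, against 52.9, 53.1 and 49.4 CPM in control-lineage ovaries. The log2 fold changes were 0.83 (SE 0.29) for Emx2os and 0.27 (SE 0.09) for Emx2, with adjusted p of 0.499 and 0.491 by limma. The pair shares 264 exonic bases, 5.26% of the exons of Emx2os.

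Tbx3, a T-box factor, had the smallest p of the 54 sense genes and was lower. It had 16.7, 17.4 and 16.5 CPM in DEHP-lineage ovaries, against 25.7, 25.5 and 29.7 CPM in control-lineage ovaries. Its log2 fold change was -0.67 (SE 0.11, 95% interval -0.93 to -0.42), with an adjusted p of 0.174 by limma. Tbx3os1, which overlaps its 5′ end and shares 115 exonic bases, had 1.01, 1.15 and 1.06 CPM in DEHP-lineage ovaries, against 1.43, 1.37 and 1.28 CPM in control-lineage ovaries. It too was lower in each DEHP-lineage ovary, with a log2 fold change of -0.34 (SE 0.27). Tbx3os2, which lies beyond the other end of Tbx3 with a gap of 370 bases and no shared exon, had 0.706, 0.643 and 0.689 CPM in DEHP-lineage ovaries, against 0.713, 0.667 and 0.790 CPM in control-lineage ovaries. These ranges overlapped, and its log2 fold change was -0.09 (SE 0.31). The log2 difference within the pair, transcript minus Tbx3, was 0.33 higher in the DEHP lineage for Tbx3os1 and 0.58 higher for Tbx3os2, without overlap for either (exact two-sided permutation p 0.1 each).

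Wt1 and Zeb2, 2 other factors of the ovarian list, had overlapping ranges. Wt1os, beside the zinc finger factor Wt1 of the gonadal ridge, had 8.99, 10.2 and 9.92 CPM in DEHP-lineage ovaries, against 9.39, 7.85 and 6.35 CPM in control-lineage ovaries. Its ranges overlapped, with a log2 fold change of 0.32 (SE 0.19), and it was 0.17 without control-lineage replicate 3. Wt1 differed by -0.05 (SE 0.13). The log2 difference within the pair was 0.37 higher in the DEHP lineage, without overlap (exact two-sided permutation p 0.1). Zeb2os, beside the zinc finger repressor Zeb2 and sharing 653 exonic bases with it, had 5.28, 6.23 and 5.48 CPM in DEHP-lineage ovaries, against 4.53, 4.14 and 4.72 CPM in control-lineage ovaries. It did not overlap between lineages, and its log2 fold change was 0.34 (SE 0.18), against 0.20 (SE 0.11) for Zeb2, whose ranges overlapped.

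Kirrel3os had the largest log2 fold change of the 55 transcripts. It lies within Kirrel3, a gene for an immunoglobulin-type adhesion protein, on chromosome 9 at 34918233 to 34929509, and shares 0 exonic bases with it. Kirrel3os had 6.42, 6.79 and 7.14 CPM in DEHP-lineage ovaries, against 3.59, 2.58 and 2.36 CPM in control-lineage ovaries. The lineages were well apart, with a log2 fold change of 1.28 (SE 0.22, 95% interval 0.75 to 1.80) and an adjusted p of 0.225 by limma. Kirrel3 itself was low, at 1.01 ± 0.149 CPM in the DEHP lineage and 0.936 ± 0.198 CPM in the control lineage (SD, n = 3 each). The log2 difference within the pair was 1.15 higher in the DEHP lineage (exact two-sided permutation p 0.1). In the authors' deposited table, Kirrel3os had a log2 fold change of 1.25 with an adjusted p of 0.365.

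Dio3os and Dio3 were both higher. Dio3 encodes the deiodinase that inactivates thyroid hormone and lies in an imprinted domain, and Dio3os (chromosome 12, 110275385 to 110278172) starts 896 bases upstream of it, runs the other way and holds the microRNA gene Mir1247. Dio3os had 1.79, 2.51 and 1.92 CPM in DEHP-lineage ovaries, against 0.950, 1.07 and 0.846 CPM in control-lineage ovaries. Dio3 had 3.42, 3.403 and 3.59 CPM in DEHP-lineage ovaries, against 2.64, 2.43 and 1.98 CPM in control-lineage ovaries. Neither gene overlapped between lineages, and the pair shares 0 exonic bases. The log2 fold changes were 1.11 (SE 0.28) for Dio3os and 0.57 (SE 0.22) for Dio3, with adjusted p of 0.417 and 0.548 by limma, and Dio3 had the highest log2 fold change of the 54 sense genes.

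In GENCODE, Zmiz1os1 overlaps the start of Zmiz1, a transcriptional coactivator, over 297 exonic bases. RefSeq instead starts Zmiz1os1 at 25406786, outside Zmiz1, which begins at 25459185 in GENCODE. Zmiz1os1 had 4.88, 6.04 and 5.26 CPM in DEHP-lineage ovaries, against 3.30, 2.73 and 3.05 CPM in control-lineage ovaries. The lineages did not overlap, with a log2 fold change of 0.83 (SE 0.20) and an adjusted p of 0.382 by limma, while Zmiz1 differed by 0.19 (SE 0.13) with overlap. Mypopos and Ttc39aos1 were lower in level. Mypopos had 0.804, 1.16 and 0.965 CPM in DEHP-lineage ovaries, against 0.764, 0.425 and 0.559 CPM in control-lineage ovaries, and Mypop, a Myb-related repressor, differed by -0.08 (SE 0.16) on the log2 scale. Ttc39aos1 had 0.902, 1.41 and 1.04 CPM in DEHP-lineage ovaries, against 0.767, 0.571 and 0.675 CPM in control-lineage ovaries, beside a log2 fold change of 0.25 (SE 0.23) for Ttc39a, a tetratricopeptide repeat gene. Neither transcript overlapped between lineages, and they differed by 0.77 (SE 0.37) and 0.72 (SE 0.33) on the log2 scale, with adjusted p of 0.602 and 0.586 by limma.

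Map2k3os and Map2k3 were the one pair in which neither gene overlapped between lineages and the directions were opposite. Map2k3, a kinase that activates p38 MAP kinases, had 42.6, 35.9 and 41.1 CPM in DEHP-lineage ovaries, against 46.6, 47.2 and 46.7 CPM in control-lineage ovaries, a log2 fold change of -0.24 (SE 0.09, adjusted p 0.548 by limma). Map2k3os, with the shared start window shown above and 0 shared exonic bases, had 2.02, 1.97 and 1.92 CPM in DEHP-lineage ovaries, against 1.16, 1.142 and 1.63 CPM in control-lineage ovaries. It was higher in each DEHP-lineage ovary, with a log2 fold change of 0.61 (SE 0.27, adjusted p 0.578 by limma). The log2 difference within the pair was 0.84 higher in the DEHP lineage (exact two-sided permutation p 0.1).

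**Figure D3:**
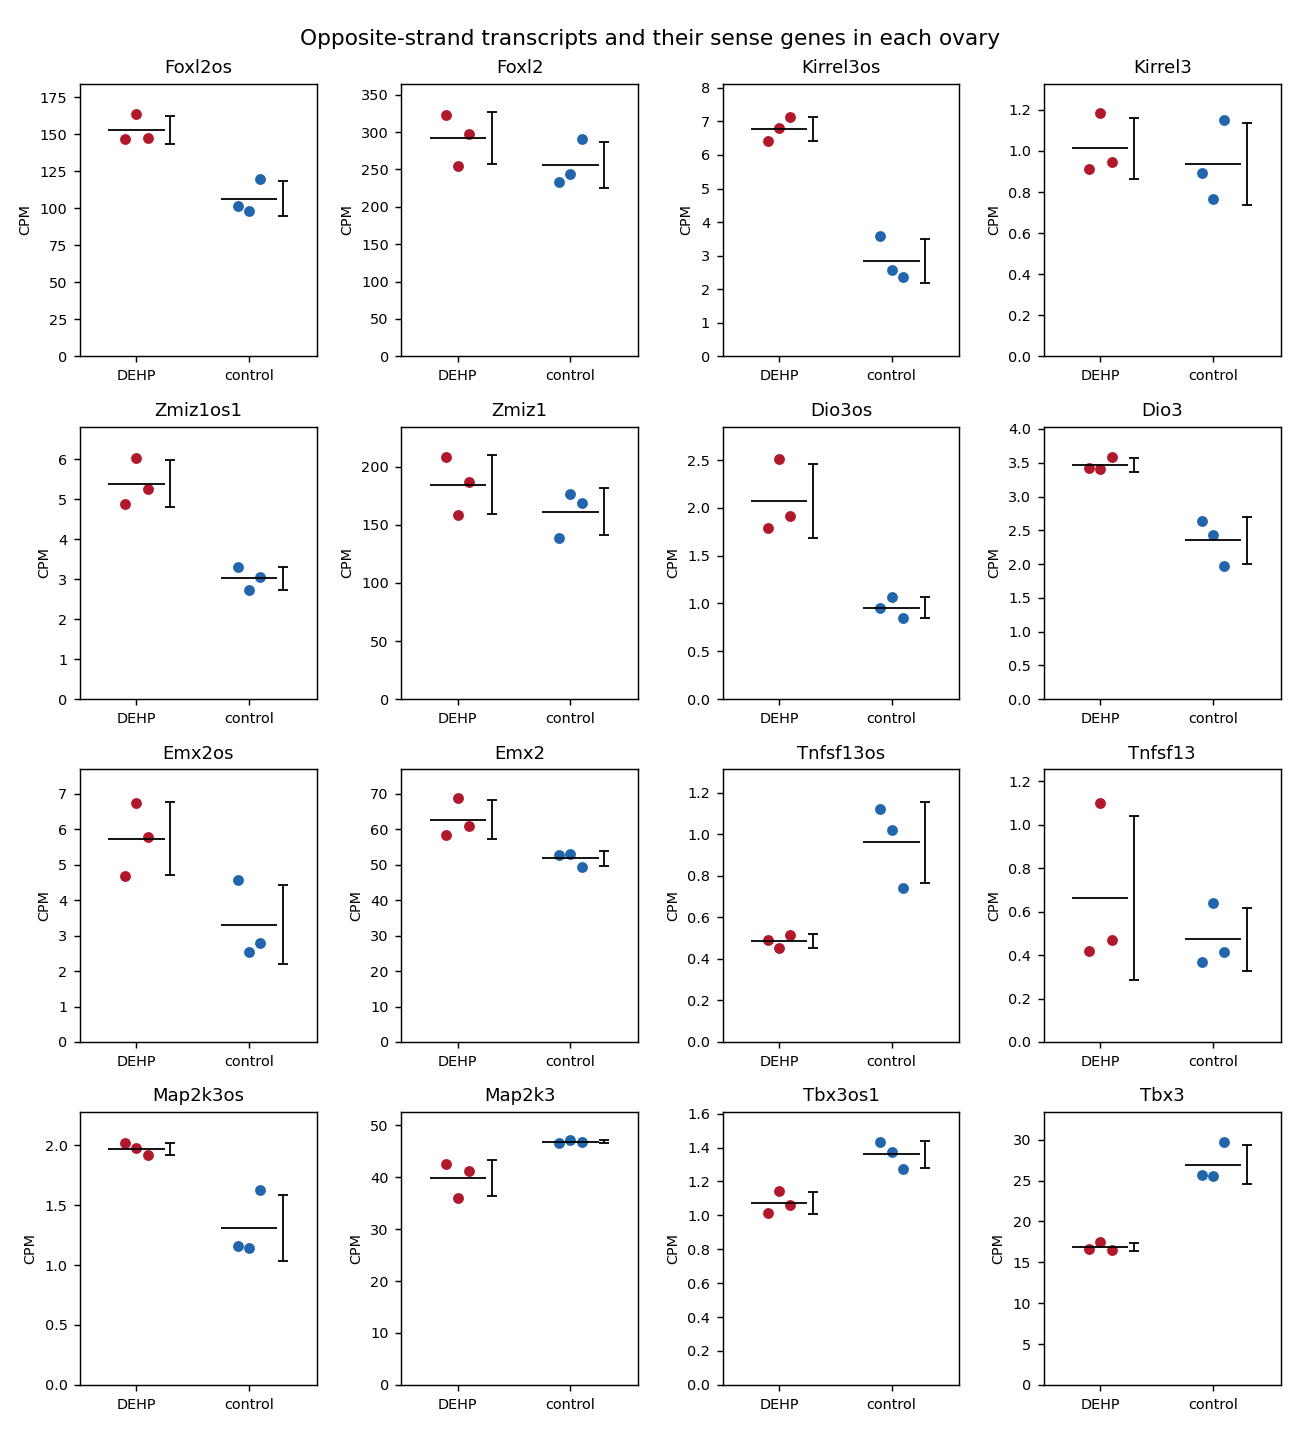
CPM in each ovary for 8 opposite-strand transcripts and, to the right of each, its sense gene, with DEHP-lineage ovaries in red left of control-lineage ovaries in blue, a line at the mean and a bar of 1 SD to each side (n = 3 each, axes from 0). Foxl2os, Kirrel3os, Zmiz1os1 and Dio3os are higher in all 3 DEHP-lineage ovaries, Tbx3 and Tbx3os1 are lower, and Map2k3os and Map2k3 differ in opposite directions.

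The transcripts furthest below the control lineage were of low level. Tnfsf13os, which shares 221 exonic bases with Tnfsf13 (the B cell factor APRIL), had 0.492, 0.451 and 0.517 CPM in DEHP-lineage ovaries, against 1.12, 1.02 and 0.742 CPM in control-lineage ovaries. Its lineages did not overlap, with a log2 fold change of -0.96 (SE 0.34) and an adjusted p of 0.503 by limma. Tnfsf13 differed by 0.39 (SE 0.49), and 58.4% of its 31-base words also occur in other genes, so its own value is uncertain. Stamos, which diverges from Stam, an adaptor of endosomal sorting, had 0.601, 0.874 and 0.728 CPM in DEHP-lineage ovaries, against 1.75, 1.03 and 1.17 CPM in control-lineage ovaries. It did not overlap, with a log2 fold change of -0.82 (SE 0.35) and an adjusted p of 0.568 by limma.

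Kank4os, inside Kank4 (an ankyrin repeat gene), had 0.969, 0.939 and 1.03 CPM in DEHP-lineage ovaries, against 1.82, 1.26 and 1.53 CPM in control-lineage ovaries. Its log2 fold change was -0.64 (SE 0.29), and that of Kank4 was 0.28 (SE 0.22). Zbtb11os1 had 3.59, 5.08 and 3.99 CPM in DEHP-lineage ovaries, against 6.36, 5.39 and 5.65 CPM in control-lineage ovaries, a log2 fold change of -0.47 (SE 0.21) beside -0.21 (SE 0.13) for Zbtb11, a zinc finger gene with which it shares 489 exonic bases. Plet1os had 0.972, 1.16 and 1.02 CPM in DEHP-lineage ovaries, against 1.501, 1.19 and 1.67 CPM in control-lineage ovaries, a log2 fold change of -0.46 (SE 0.29). All 3 transcripts were lower in each DEHP-lineage ovary, with adjusted p of 0.580, 0.573 and 0.686 by limma. Plet1 itself varied widely, between 0.971 and 5.06 CPM in DEHP-lineage ovaries and between 1.08 and 3.55 CPM in control-lineage ovaries.

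Ino80dos, divergent from Ino80d (a subunit of the INO80 chromatin remodeller) and sharing 431 exonic bases with it, had 2.21, 2.23 and 2.23 CPM in DEHP-lineage ovaries, against 2.72, 2.81 and 2.57 CPM in control-lineage ovaries. The lineages did not overlap, with a log2 fold change of -0.28 (SE 0.21), while Ino80d differed by 0.17 (SE 0.09). In GENCODE, Wdr83os shares 52.3% of its exonic bases with Wdr83, a WD repeat gene. RefSeq starts Wdr83os at 85080963, upstream of the RefSeq start of Wdr83, so there the starts diverge. Wdr83os had 20.6, 21.3 and 20.3 CPM in DEHP-lineage ovaries, against 22.7, 24.0 and 25.1 CPM in control-lineage ovaries. It was lower in each DEHP-lineage ovary, with a log2 fold change of -0.20 (SE 0.10). Wdr83 had 14.4, 14.5 and 14.3 CPM in DEHP-lineage ovaries, against 14.8, 15.5 and 15.0 CPM in control-lineage ovaries, also without overlap. The 4 protein-coding members lay between -0.20 and 0.08 in log2 fold change.

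Most of the abundant transcripts differed little. The log2 fold changes were -0.10 (SE 0.11) for Brip1os, -0.0032 (SE 0.08) for Slc7a6os, -0.27 (SE 0.14) for Fam120aos, -0.18 (SE 0.14) for Cep83os and 0.01 (SE 0.12) for Epb41l4aos. The signs for Slc7a6os and Epb41l4aos turned under other settings, and Brip1os was at -0.0071 without control-lineage replicate 2. Slc7a6os was the steadiest, with 44.0, 42.5 and 43.9 CPM in DEHP-lineage ovaries, against 44.1, 42.4 and 44.3 CPM in control-lineage ovaries. Arhgap20os, Cebpzos and Chd3os had log2 fold changes of -0.23 (SE 0.20), -0.12 (SE 0.16) and 0.26 (SE 0.16), all with overlapping ranges. Part of the Brip1os exons also faces Ints2 and Med13, and 12 of the 53 matched transcripts share exonic bases with such another gene of the opposite strand.

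One ovary set the value of Dnm3os. This transcript lies within Dnm3, the gene of a dynamin, shares 0 exonic bases with it and holds the microRNA genes Mir199a-2 and Mir214. It had 8.17, 21.9 and 10.7 CPM in DEHP-lineage ovaries, against 10.5, 8.10 and 7.56 CPM in control-lineage ovaries. DEHP-lineage replicate 2 was far above the rest, and the ranges overlapped. The log2 fold change was 0.53 (SE 0.35), and it was 0.12 without that ovary. Dnm3 differed by -0.07 (SE 0.15). The summed CPM of 7 adipocyte markers was also highest in DEHP-lineage replicate 2, at 501.9 CPM, against 47.5 and 97.9 CPM in the other DEHP-lineage ovaries and 61.1 to 230.3 CPM in control-lineage ovaries. That of 5 oviduct and cilia markers was highest there too, at 21.8 CPM, against 10.85 and 14.6 CPM in the other DEHP-lineage ovaries and 6.97 to 14.0 CPM in control-lineage ovaries. The part of either list in the Dnm3os value was not tested.

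Over all 55 pairs, transcript and sense gene differed in the same direction in 35, both higher in 21 and both lower in 14. In the other 20 the directions were opposite, with the transcript higher and the sense gene lower in 12 and the reverse in 8. In 9 pairs neither gene overlapped between lineages, and 8 of these had the same direction. Zfp335os and Zfp335 were among them, a pair chosen after its values were seen, which differed by 0.56 (SE 0.25) and 0.36 (SE 0.09) on the log2 scale. Across pairs the log2 fold changes had a Pearson correlation of 0.27 and a Spearman correlation of 0.26 (55 pairs, which share the same 6 libraries). The difference within the pair did not overlap between lineages in 18 pairs, higher in the DEHP lineage in 13 and lower in 5, with a median of 0.16 over the 55. All 18 had the smallest exact two-sided permutation p that 20 assignments of 3 against 3 allow, 0.1. That p does not count the removed direction, and 22.9% of all single genes did not overlap between lineages. No such counts were made over other pairs of genes, so the 35, 9 and 18 have no share to be read against. The widest were Tnfsf13os at -1.35, Kirrel3os at 1.15, Kank4os at -0.92, Mypopos at 0.85 and Map2k3os at 0.84. That order is not firm: Tnfsf13os was at -0.86 without DEHP-lineage replicate 2 and at -0.78 with 0.5 CPM added, Kank4os at -0.52 without control-lineage replicate 1, and Mypopos at 0.53 with 0.5 CPM added.

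**Figure D4:**
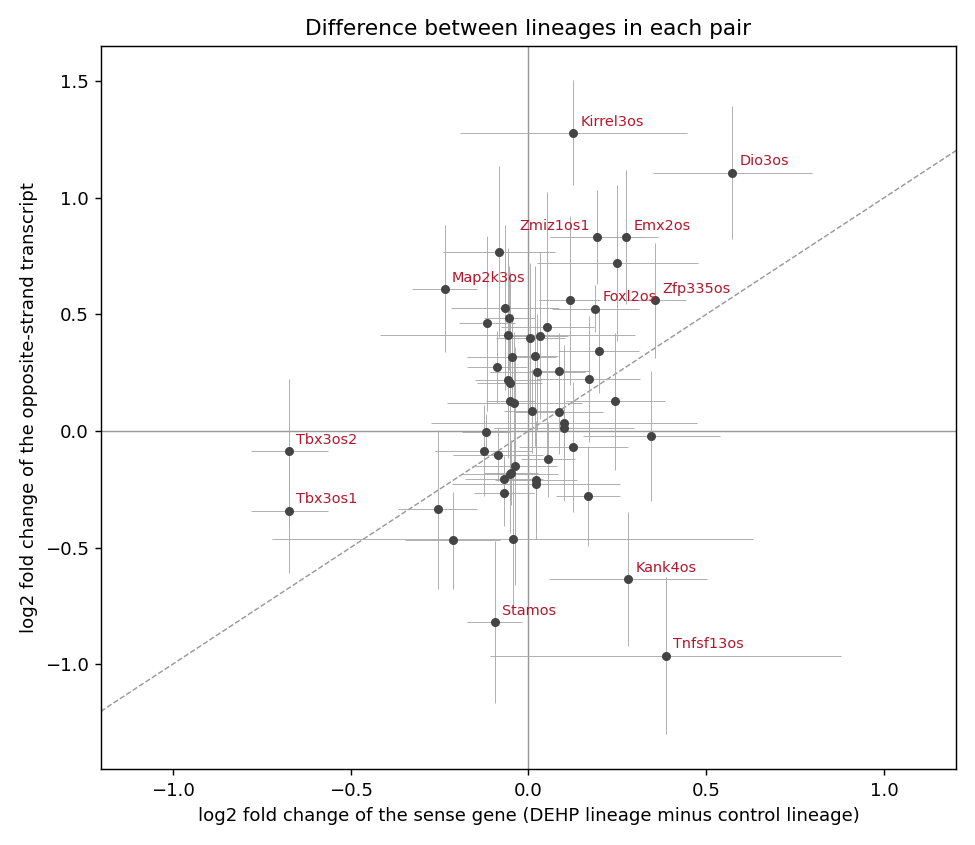
Log2 fold change (DEHP lineage minus control lineage) of each opposite-strand transcript against that of its sense gene, with bars of 1 standard error and a dashed line where both are equal (55 pairs, 3 ovaries per lineage). Kirrel3os and Dio3os lie highest, Tnfsf13os and Stamos lowest, and the points spread more up and down than from left to right.

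The arrangement of the pair, by GENCODE's starts and exons, was set beside these counts as a description. Both genes differed in the same direction in 15 of the 21 pairs that diverge from closely spaced starts, 9 of the 12 whose 5′ ends overlap, 6 of the 15 that overlap with distant starts, and 4 of the 5 that lie beyond the sense gene with distant starts. The lineages did not overlap in 16 of the 30 transcripts that share exonic bases with their sense gene, against 6 of the 23 that share none, or 53.3% and 26.1%, where 22.9% of all genes did not overlap. RefSeq models differ for some of the 16, Foxl2os, Irx3os, Wdr83os and Zmiz1os1 among them, and these counts were not repeated with RefSeq. The part that reads of the facing exons played in the 16 was not tested.

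Other genes tied to such RNAs were looked at in the same fit. Of all genes, 46.9% had a higher mean in the DEHP lineage and 8.78% an unadjusted p under 0.05 by limma. Of 22 measured genes of the nuclear exosome and its adaptors, which degrade unstable noncoding RNA, 0 were called, 5 had a higher and 17 a lower mean in the DEHP lineage, and the median log2 fold change was -0.07. The one with an unadjusted p under 0.05, Zfc3h1, was higher by 0.27 (SE 0.09). Of 27 measured ovarian transcription factors, 0 were called, 17 were higher, and 4 had an unadjusted p under 0.05, each higher: Gata6 by 0.48, Sox4 by 0.47, Tcf21 by 0.40 and Emx2 by 0.27 on the log2 scale. Among antisense transcripts with other endings, the imprinted Kcnq1ot1 differed by 0.65 (SE 0.09), with an adjusted p of 0.157 by limma, and had 45.4, 52.0 and 46.8 CPM in DEHP-lineage ovaries, against 30.7, 31.9 and 29.0 CPM in control-lineage ovaries. Airn differed by 0.49 (SE 0.30) and Nespas by -0.05 (SE 0.31). The name rule for those endings also took in the protein-coding Hras and Leprot.

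Markers of other cell types moved with the lineages in some lists. For comparison, 46.9% of all genes had a higher mean in the DEHP lineage. An unadjusted p under 0.05 by limma was found for 4.76% of all genes with a higher and 4.02% with a lower mean. All 6 smooth muscle markers had a lower mean in the DEHP lineage, 4 of them with an unadjusted p under 0.05, with a summed CPM of 1464 to 1720 in DEHP-lineage ovaries, against 1861 to 2074 in control-lineage ovaries. All 7 theca markers were lower in mean, at 2586 to 2671 CPM in DEHP-lineage ovaries, against 2783 to 3453 CPM in control-lineage ovaries, and all 4 erythroid markers were higher, at 115.0 to 278.1 CPM in DEHP-lineage ovaries, against 65.5 to 126.0 CPM in control-lineage ovaries. None was called by limma, and unadjusted p under 0.05 was found for 0 of the theca and 2 of the erythroid markers. Of the 9 oocyte markers 8 were lower in mean, 2 with an unadjusted p under 0.05, and their summed CPM was 1017 to 1148 in DEHP-lineage ovaries, against 1099 to 1425 in control-lineage ovaries. Of the 5 oviduct and cilia markers 4 were higher in mean, 1 with an unadjusted p under 0.05, with a median log2 fold change of 0.79 and a summed CPM of 10.85 to 21.8 in DEHP-lineage ovaries, against 6.97 to 14.0 in control-lineage ovaries. The part of these lists in the transcript values was not tested.

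In the authors' deposited table, 0 of the 55 transcripts had an adjusted p under 0.05, with a lowest of 0.365, and 6 had an unadjusted p under 0.05, against 6.18% of all genes. There Foxl2os had a log2 fold change of 0.52 with an adjusted p of 0.394.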

How the data were processed

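Per the labels' protocols, polyadenylated RNA of single whole ovaries was sequenced from one end with a kit that marks strand. The genome build was GRCm38.p6, and the software listed in the submitters' processing notes was edgeR 3.20.5 in R 3.4.3, Subread 1.5.2 with featureCounts, STAR 2.5.3a, Trimmomatic 0.36, FastQC 0.11.5 and bcl2fastq 2.17.1.14. The sources used here give neither the strand setting nor the prior count. The authors deposited log2 CPM values per ovary, from which, by the table's name, a surrogate variable had been removed, and beside them a fold change on the log2 scale, a p-value and its adjusted form. Their signed fold column and identifier columns, also deposited, served only to match genes. The depth is unknown, since no counts were used here.

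The log2 CPM values were compared by limma 3.58.1 in R 4.3.3, two-sided, with a mean-variance trend, no added pseudocount or filter, and the removed direction as a covariate, which leaves 3 residual degrees of freedom. Adjusted p-values are Benjamini-Hochberg values over 16454 genes, with a threshold of 0.05. CPM values were computed back from log2 CPM. Within-pair differences were tested by exact permutation, which treats the 6 ovaries as exchangeable and does not count the removed direction. Positions and exon lengths came from GENCODE M21, start windows from RefSeq. Words of 31 bases shared with other genes reached 20% in 0 of 53 transcripts and 4 of 54 sense genes. The 28 transcripts named were the 12 most abundant, the 6 largest differences each way among those without overlap, those beside listed ovarian factors or sharing a sense gene, and the 5 widest within-pair differences each way. Members and lists were chosen with earlier results of these data known.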

Additional observations from a re-analysis of the deposited data

How the results depend on the processing

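The count of called transcripts and that of called sense genes were 0 in the 14 alternatives run. The lowest adjusted p of a transcript by limma was 0.0593, for Kirrel3os without control-lineage replicate 1, and 0.0757 without the covariate. Over all genes, 7 were called, against 20 without the covariate, 3 with quantile normalization, 3 with median centring and 2 to 35 when one ovary was left out (2 without control-lineage replicate 3, 4 without control-lineage replicate 2 and 35 without DEHP-lineage replicate 2). The median log2 fold change of the transcripts was 0.033 with quantile normalization and 0.0155 to 0.1761 when one ovary was left out, against 0.1272, and it was 0.0776 with 0.5 CPM added and 0.0828 for the 40 transcripts with a mean log2 CPM of at least 0. Of 387 values of named transcripts, 378 kept their direction and 9 turned: Epb41l4aos was -0.0298 with DEHP-lineage replicates 1 and 3 averaged and ran from -0.0520 to 0.0918 with one ovary left out, and Slc7a6os was 0.0201 with quantile normalization, 0.0069 with median centring and -0.0225 to 0.0127 with one ovary left out. The cause was not tested. All 196 values of within-pair differences stayed within the spread between replicates, but with one ovary left out the sign turned for Plet1os (-0.8881 to 0.1766), Zeb2os (-0.0312 to 0.2548), Brip1os (-0.0467 to 0.0042) and Epb41l4aos (-0.2402 to 0.0018). The replicate block gave 6 called genes with the removed direction and 6 without it, an alternative chosen after seeing the data, and 0 transcripts either way. Deviations of same-numbered ovaries correlated at -0.33, -0.0034 and -0.20. With 3 ovaries per lineage and one direction removed, these correlations cannot decide whether the numbers pair the samples. Transcripts below 1 CPM have the widest errors, and with unknown depth no detection limit can be given.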
